A study of Mus musculus with 3 samples.

Results

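Aminoacyl-tRNA synthetases, the enzymes that load each tRNA with its amino acid, were followed in mouse regulatory T cells through 36 genes, 20 cytosolic and 16 mitochondrial. They were chosen by name, as the synthetase genes whose symbols end in 2 (mitochondrial) or do not (cytosolic), a rule that uses no measured value. All 36 were found among the 50600 genes counted. Mars1 was listed under its older symbol Mars.

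Total RNA of regulatory T cells of strain C57BL/6NJ, primary cells described in the file headers as activated for 16 hours, was sequenced in 3 libraries. They are biological replicates 2, 3 and 4 of 1 group, with no second genotype, treatment or time. All 3 carry the same donor identifier, age is not known and sex was not collected, so the labels do not show whether the libraries came from separate mice. One linked protocol is named for CD4 T cell differentiation and another for polyadenylated RNA, although the assay label is total RNA. Values below are means ± SD over the 3 libraries, a spread that may be technical in part. The question addressed here is therefore which synthetase genes these cells express, at which level, and how far the level moved between libraries.

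Protein synthesis needs every amino acid to be attached to its tRNA, so a cell cannot dispense with any cytosolic synthetase. Mitochondria translate their own few proteins with a separate set of nuclear-encoded synthetases, most of them distinct from the cytosolic enzymes. Gars and Kars are exceptions, since each gives rise to both the cytosolic and the mitochondrial enzyme, and mitochondria charge glutaminyl-tRNA indirectly through the glutamyl enzyme and an amidotransferase. T cells enlarge and raise protein synthesis when they are activated. Several cytosolic synthetase genes are known targets of ATF4, the transcription factor of the amino acid and integrated stress response.

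Assigned fragments numbered 41222058, 47665060 and 99097524 in replicates 2, 3 and 4, and levels are given as TPM (transcript abundance corrected for gene length and scaled to a fixed total), computed from the deposited counts and the merged exon length of each gene. All 6 regulatory T cell markers and all 4 general T cell markers examined were at 1 TPM or more in every library. Foxp3 was at 76.4 to 83.9 TPM, and Ikzf2, the lowest of the 6, at 2.66 to 3.94 TPM. B cell markers summed to 1.88 to 2.07 TPM and monocyte or macrophage markers to at most 0.205 TPM. The neutrophil and erythroid markers had no fragment, and of the CD8 T cell markers Cd8b1 was at 23.9 to 28.6 TPM and Cd8a at 0.338 to 0.508 TPM. Xist had 27625, 85 and 18895 fragments and the Y-linked Ddx3y 8, 2932 and 4314 in replicates 2, 3 and 4, so that replicate 4 held both and the 3 libraries cannot all come from 1 mouse. In RNA of many cells, fewer cells of a type and less RNA per cell cannot be told apart.

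All 36 synthetase genes reached 1 TPM in every library, against 45.6% of the 21764 protein-coding genes. At least 10 TPM in every library was reached by 34 of the 36, against 34.8% of protein-coding genes, and at least 100 TPM by 20 of the 36, against 8.80%. The cytosolic set accounted for 19 of those 20, with Cars, the cysteinyl enzyme, as the one cytosolic gene below 100 TPM. Lars2, the leucyl enzyme, was the one mitochondrial gene above it. The median was 237 TPM over the 20 cytosolic genes and 36.7 TPM over the 16 mitochondrial genes. Those protein-coding genes that reached 1 TPM throughout had a median of 32.3 TPM. Summed over genes, cytosolic synthetases made up 5156 ± 45.4 TPM and mitochondrial synthetases 671 ± 23.3 TPM (SD, n = 3), a ratio of 7.69.

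**Figure D1:**
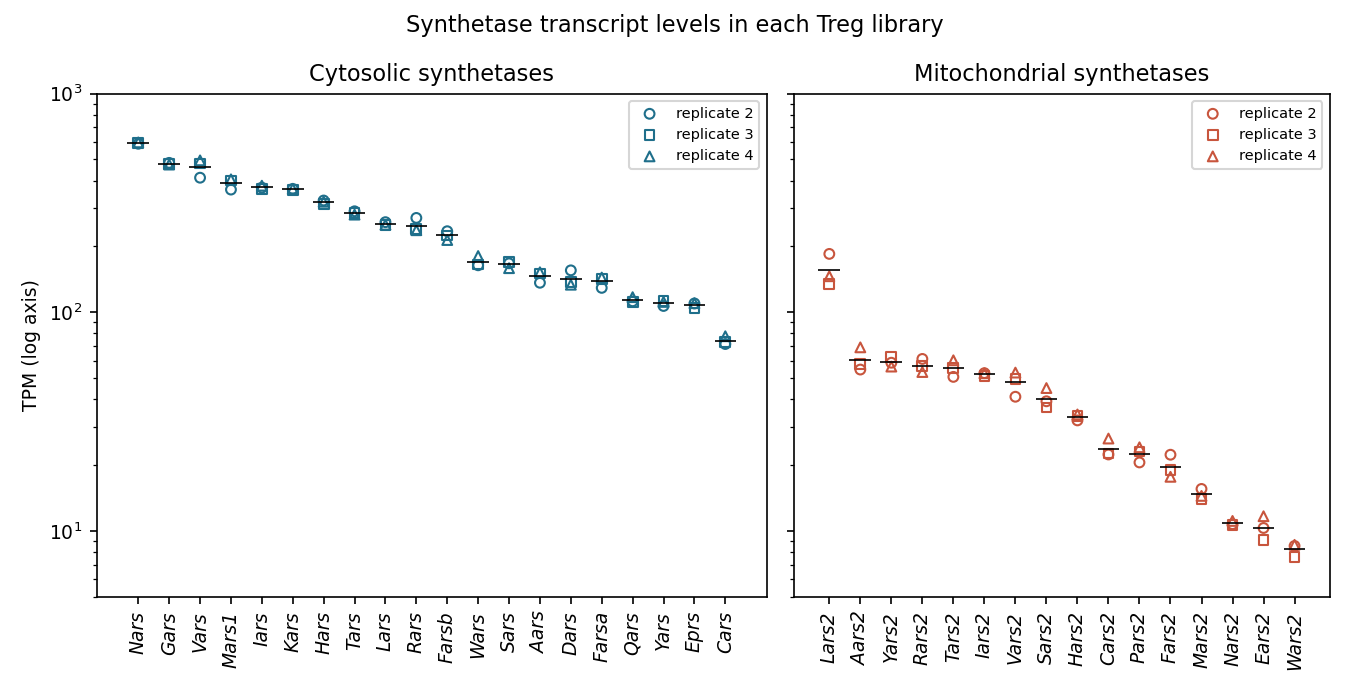
Level of each of the 36 synthetase genes in TPM on a log axis, ordered by mean within the cytosolic set (left) and the mitochondrial set (right), with 1 point per library and a bar at the mean. Cytosolic means run from 594 TPM for Nars to 74.0 TPM for Cars, and mitochondrial means from 155 TPM for Lars2 to 8.26 TPM for Wars2.

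Nars, which charges asparagine, was the highest cytosolic gene at 589, 594 and 598 TPM in replicates 2, 3 and 4. The 3 libraries were close together and lay above every value of the next gene. With the length of one coding transcript in place of the merged exons (coding transcript length below), Nars stood at 397 TPM, behind Kars at 497, Vars at 428 and Gars at 418 TPM. Gars, the glycyl enzyme for both compartments (chr6:55038007-55079500, mm10), followed with 482, 477 and 473 TPM in replicates 2, 3 and 4. Vars, the valyl enzyme, was the third on average with 412, 478 and 494 TPM in replicates 2, 3 and 4. Its ranges overlapped those of Gars, since replicate 2 lay below and replicate 4 above the Gars values. Mars1 (methionine, 389.7 ± 22.7 TPM) and Iars (isoleucine, 372 ± 6.02 TPM) came next, then Kars, the lysyl enzyme for both compartments, with 366, 361 and 367 TPM in the same order of libraries. The ranges of neighbours overlapped for 8 of the 19 neighbouring pairs in the cytosolic order, so the order within those pairs is not resolved by these libraries.

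The middle of the cytosolic set was formed by Hars (histidine, 319 ± 5.90 TPM), Tars (threonine, 284 ± 4.99 TPM), Lars (leucine, 253 ± 4.34 TPM), Rars (arginine, 249 ± 18.1 TPM) and Farsb (224 ± 10.4 TPM). Farsb and Farsa encode the beta and alpha subunits of cytosolic phenylalanyl-tRNA synthetase, which assemble in equal numbers. Farsa was at 129, 142 and 144 TPM in replicates 2, 3 and 4, below every Farsb value of 235, 224 and 214 TPM. This gap was not stable to gene length: with coding transcript length, Farsa stood at 229.8 TPM and Farsb at 193 TPM. Wars (169.9 ± 9.30 TPM), the tryptophanyl enzyme known to be induced by interferon-gamma, Sars (serine, 165 ± 5.64 TPM), Aars (alanine, 146 ± 8.64 TPM) and Dars (aspartate, 142 ± 11.6 TPM) followed. Qars, which charges glutamine, was at 113 ± 3.30 TPM.

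With merged exon length the lowest 3 cytosolic genes were Yars, Eprs and Cars. Yars, the tyrosyl enzyme, had 107, 113 and 111 TPM in replicates 2, 3 and 4. Eprs, whose single protein carries both the glutamyl and the prolyl enzyme, had 109.6, 105 and 109.9 TPM, overlapping Yars. With coding transcript length Eprs stood at 267 TPM, above the cytosolic median of 222 TPM under that length. Cars, the cysteinyl enzyme, had 71.5, 72.8 and 77.6 TPM and lay below every other cytosolic gene in every library. Aars shares 1326 bases of exon with Exosc6 on the same strand, and fragments there would have been left out, so its level may be understated. The highest and lowest cytosolic genes differed 8.03-fold, and 4.92-fold with coding transcript length.

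Promoter sequences were read from RefSeq on build GRCm38.p6, as 250 bases before to 50 after each gene's start, for the 27 of 36 synthetase genes that had a window. These were 13 of the 20 cytosolic and 14 of the 16 mitochondrial genes. The core of the C/EBP-ATF element, TGATGNAA, which ATF4 with a C/EBP partner is known to bind, was searched on both strands, and 4.51% of the 27025 genes with a window held it. It was present in 5 of the 13 cytosolic windows (Aars, Gars, Iars, Tars and Yars) and in 0 of the 14 mitochondrial windows. Among 8 genes of the stress response it was present in 3, Asns, Chac1 and Trib3. Windows around the matches are shown so that the element can be compared between synthetase and stress response genes. Each is written 5′ to 3′ on the strand of its gene, and capitals mark the element in either orientation.
Aars, chr8:111033840-111033869 (+ strand): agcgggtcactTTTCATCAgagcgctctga
Gars, chr6:55037960-55037989 (+ strand): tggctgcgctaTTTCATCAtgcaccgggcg
Iars, chr13:49682126-49682155 (+ strand): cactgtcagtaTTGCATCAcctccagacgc
Tars, chr15:11399655-11399684 (- strand): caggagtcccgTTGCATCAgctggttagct
Yars, chr4:129189895-129189924 (+ strand): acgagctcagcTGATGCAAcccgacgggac
Asns, chr6:7693214-7693243 (- strand): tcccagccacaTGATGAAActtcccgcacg
Chac1, chr2:119351038-119351067 (+ strand): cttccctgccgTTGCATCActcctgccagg
Trib3, chr2:152344028-152344057 (- strand): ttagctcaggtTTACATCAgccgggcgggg

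In the synthetase windows printed here the element read TTGCATCA in Iars and Tars, TTTCATCA in Aars and Gars, and TGATGCAA in Yars, the only match in the orientation of its gene. TTGCATCA is TGATGCAA read on the other strand. Counted from the start to the first base of the match, the printed matches lay 30 bases before it in Gars and 15 before in Tars, and 9 after it in Aars, 7 after in Iars and 3 after in Yars. A match is a description of these letters, not a bound site or a cause of a level.

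The E-box CACGTG, the motif that MYC with MAX is known to bind, was present in 8.09% of genes with a window. It was found in 4 of the 13 cytosolic windows (Aars, Farsb, Iars and Tars) and in 1 of the 14 mitochondrial windows (Ears2). Aars, Iars and Tars held both motifs, at positions that did not overlap. The E-box windows of Iars and Tars are given, with the E-box in capitals, because their C/EBP-ATF windows are printed above and the pair can be read together. The E-box began 69 bases before the start in Iars and 19 after it in Tars.
Iars, chr13:49682049-49682078 (+ strand): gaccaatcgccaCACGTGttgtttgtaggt
Tars, chr15:11399622-11399651 (- strand): tccgcctgtggcCACGTGgcgcacgcgcag

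The 5 cytosolic genes with a C/EBP-ATF core had a median of 284 TPM and the 8 without it a median of 154 TPM. This is a difference of 0.86 ± 0.02 in median log2(TPM + 1) (SD over 3 libraries), and it turned to -0.38 with coding transcript length. For the E-box the medians were 254 TPM in 4 genes with it and 142 TPM in 9 without it, a log2 difference of 0.78 ± 0.05 that turned to -0.48 with coding transcript length. No relation between motif and level could therefore be read from these genes. Atf4 itself was at 703, 723 and 742 TPM in replicates 2, 3 and 4, and Myc at 806, 835 and 833 TPM. Of the stress response genes, Phgdh and Psat1 of serine synthesis were at 538 ± 24.5 TPM and 316 ± 9.02 TPM. Sesn2, a stress-induced regulator of mTORC1, was at 49.4 ± 6.03 TPM. Asns, the asparagine synthetase, was at 16.0 ± 1.79 TPM, Trib3 at 9.90 ± 1.49 TPM, Ddit3 at 8.92 ± 2.24 TPM and Chac1 at 4.32 ± 0.849 TPM. Levels in this response therefore ran from below 10 TPM (Chac1, Ddit3 and Trib3) to above 100 TPM (Atf4, Phgdh and Psat1), and the element was present in Asns, Chac1 and Trib3, 3 of its lower genes. The 13 cytosolic synthetase genes with a window all stood above 100 TPM, with the element or without it.

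In the multisynthetase complex 8 cytosolic synthetase chains are held together by 3 scaffold proteins. Their genes, Dars, Eprs, Iars, Kars, Lars, Mars1, Qars and Rars, had a median of 251 TPM, and the 12 other cytosolic genes a median of 197 TPM. The log2 difference of the medians was 0.35 ± 0.05 (SD, n = 3 libraries), positive in every library. Levels within the complex ran from 108 ± 2.94 TPM for Eprs to 389.7 ± 22.7 TPM for Mars1. With coding transcript length Eprs moved to 267 TPM and the difference between complex and other cytosolic genes was 0.29. Of the scaffold genes, Aimp2 was at 218 ± 7.87 TPM and Aimp1 at 52.9 ± 2.63 TPM. This gap depended on gene length, since with coding transcript length Aimp2 was at 203 TPM and Aimp1 at 176 TPM. Eef1e1, the third scaffold, had 450.0, 361 and 363 TPM in replicates 2, 3 and 4, highest in replicate 2 with no overlap with replicates 3 and 4.

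Synthetases fall into 2 unrelated structural classes by the fold of the catalytic domain. The 9 cytosolic genes of class I had a median of 249 TPM and the 10 of class II a median of 254 TPM. Eprs, which carries one domain of each class, was left out of both. The log2 difference of -0.04 ± 0.03 became 0.01 when counts were not scaled by gene length, so its sign rested on the scaling.

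Among mitochondrial genes Lars2 (chr9:123366927-123462666, mm10) was the highest with 185, 135 and 146 TPM in replicates 2, 3 and 4. Replicate 2 lay above the others, and no Lars2 value overlapped those of any other mitochondrial gene. It made up 23.1% of the summed mitochondrial TPM and was the only mitochondrial gene above the lowest cytosolic gene, joined by Tars2 with coding transcript length. Lars2 charges leucine, the amino acid with the largest codon share in the mitochondrial genome. Its merged exons span 11089 bases against 3894 for its coding transcript, and with the latter length its level was 295 TPM. A stretch of 72 bases of its coding transcript was 98.6% identical to Gm15564. Fragments from that stretch may be missing from its count, or fragments of the similar sequence may be counted in it, which was not tested. Exons outside the coding transcript were not searched for shared sequence.

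A group of 5 mitochondrial genes followed within a narrow range, namely Aars2 (60.5 ± 7.54 TPM), Yars2 (58.7, 62.2 and 56.4 TPM in replicates 2, 3 and 4), Rars2 (57.0 ± 3.95 TPM), Tars2 (55.5 ± 4.84 TPM) and Iars2 (52.1 ± 0.783 TPM). They charge alanine, tyrosine, arginine, threonine and isoleucine. Vars2 (valine, 47.8 ± 6.10 TPM), Sars2 (serine, 40.2 ± 4.29 TPM) and Hars2 (histidine, 33.2 ± 1.07 TPM) came below them, then Cars2 (cysteine, 23.8 ± 2.30 TPM), Pars2 (proline, 22.6 ± 1.83 TPM) and Fars2 (phenylalanine, 19.6 ± 2.38 TPM). Mars2, which charges methionine, was at 15.5, 14.0 and 14.4 TPM in replicates 2, 3 and 4. The lowest levels were those of Nars2 (asparagine, 10.8 ± 0.257 TPM), Ears2 and Wars2. Ears2, the glutamyl enzyme, had 10.3, 9.07 and 11.7 TPM in replicates 2, 3 and 4, a range that held every Nars2 value. Wars2, the tryptophanyl enzyme, had 8.53, 7.61 and 8.63 TPM and was the lowest in every library. In this order the ranges overlapped for 9 of 15 neighbouring pairs. The highest and lowest mitochondrial genes differed 18.8-fold, and 39.7-fold with coding transcript length.

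Other genes complete mitochondrial charging. Qrsl1, Gatb and Gatc, the amidotransferase subunits that turn glutamyl- into glutaminyl-tRNA, were at 22.3 ± 0.264 TPM, 19.2 ± 0.316 TPM and 46.9 ± 2.19 TPM. With merged exon length all 3 were above Ears2, the enzyme that supplies their substrate, in every library. With coding transcript length Qrsl1 (29.1 TPM) and Gatc (31.4 TPM) stayed above Ears2 (17.4 TPM) on average, while Gatb (15.9 TPM) was below it. Mtfmt, which formylates the initiator methionyl-tRNA that Mars2 charges, was at 20.4 ± 0.356 TPM.

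Each amino acid with separate enzymes allows a cytosolic gene to be set against its mitochondrial counterpart within a library, and 17 such pairs were formed. Farsa and Farsb were each paired with Fars2, and Eprs with both Ears2 and Pars2. With merged exon length the cytosolic gene was higher in 3 of 3 libraries in 17 of 17 pairs, and with coding transcript length in all but the leucyl pair. In a sign-flip permutation test, exact and two-sided, each pair had p = 0.25 and an adjusted p of 0.25 over the 17 pairs, which is the smallest p that 3 libraries allow. The pairs are not independent, since genes recur and all share the libraries.

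**Figure D2:**
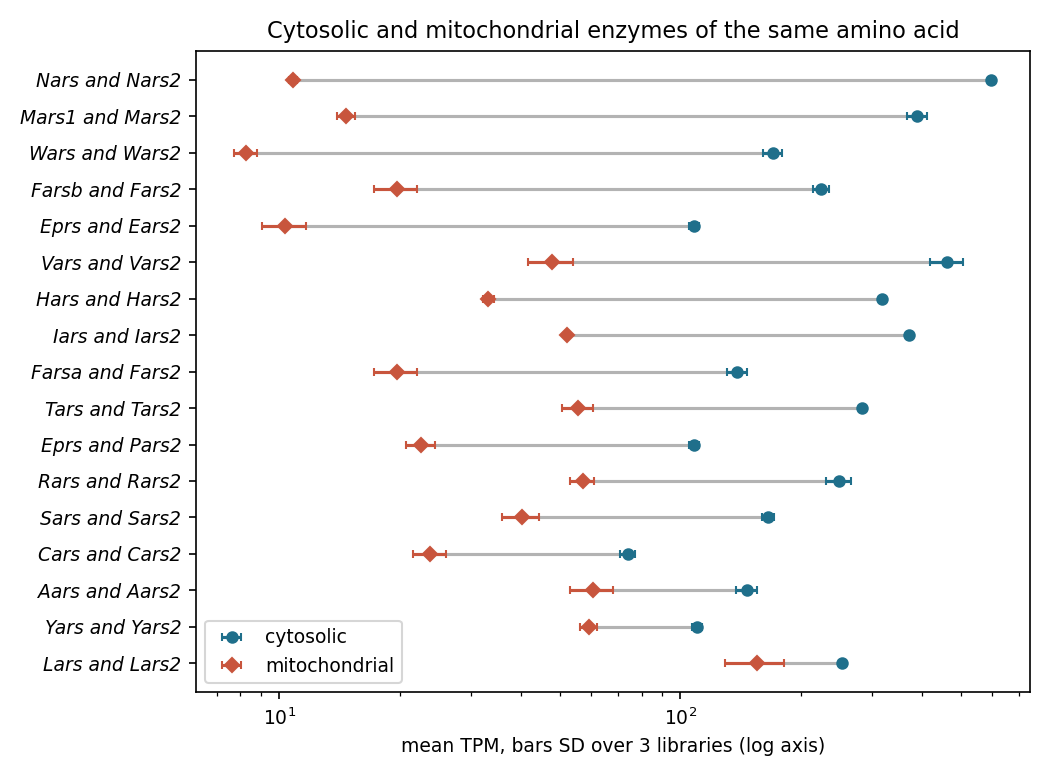
Mean TPM of the cytosolic and the mitochondrial synthetase of 17 pairs, on a log axis with merged exon length. Bars show the SD over 3 libraries, and a line joins the genes of each pair. The cytosolic mean lies above the mitochondrial mean in every pair. Pairs are ordered by their mean difference in log2(TPM + 1), from 0.72 for Lars against Lars2 to 5.65 for Nars against Nars2.

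With merged exon length the largest difference was in the asparaginyl pair. Nars had 589, 594 and 598 TPM and Nars2 10.7, 10.6 and 11.1 TPM in replicates 2, 3 and 4, a log2 difference of 5.65 ± 0.03 (SD, n = 3) or 50.4-fold on the scale of TPM + 1. The ranges did not overlap. The methionyl pair followed with 4.64 ± 0.15 and the tryptophanyl pair with 4.21 ± 0.08 on the log2 scale. Both joined a cytosolic gene to one of the lowest mitochondrial genes. This order rested on gene length. With coding transcript length the methionyl and asparaginyl differences were both 4.80, and without length scaling Eprs minus Ears2 (5.12) and Eprs minus Pars2 (4.75) exceeded Nars minus Nars2 (4.31).

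The smallest difference with merged exon length was in the leucyl pair. Lars had 258, 250.0 and 251 TPM and Lars2 185, 135 and 146 TPM in replicates 2, 3 and 4, a log2 difference of 0.72 ± 0.21 (SD, n = 3), or 1.64-fold, with no overlap. This direction depended on gene length. The difference was -0.79 with coding transcript length and -0.80 without length scaling, so which leucyl gene was the higher is not settled by these data. Under either setting the other 16 pairs kept the cytosolic gene above the mitochondrial one. The tyrosyl pair (0.89 ± 0.07) and the alanyl pair (1.26 ± 0.12) were the next closest with merged exon length. With coding transcript length the cysteinyl (0.73) and threonyl (0.82) pairs were closer than the tyrosyl (0.92) and alanyl (1.94) pairs, so this order is not fixed either.

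Between these lay the cysteinyl (1.60 ± 0.07), seryl (2.02 ± 0.20), arginyl (2.11 ± 0.04), threonyl (2.34 ± 0.15) and isoleucyl (2.81 ± 0.02) pairs, all on the log2 scale. The histidyl (3.23 ± 0.06) and valyl (3.25 ± 0.05) pairs were close to each other. Hars and Hars2 lie head to head on chromosome 18 with 198 bases of overlap on opposite strands, which the stranded counting told apart. Vars and Vars2 lie on the same chromosome but 639311 bases apart. Phenylalanyl differences were 2.76 ± 0.25 for Farsa and 3.45 ± 0.10 for Farsb. Eprs exceeded Ears2 by 3.27 ± 0.13 and Pars2 by 2.21 ± 0.13.

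With coding transcript length, a setting chosen after seeing the data, 8 of the 36 synthetase genes moved by over 1.5 times, as did 1525 of the 9926 protein-coding genes at 1 TPM. The median log2 shift was 0.08 over synthetase genes and -0.20 over those 9926 genes. The 8 were Cars2, Eprs, Tars2, Lars2, Sars, Farsa, Ears2 and Qars. Cars2 stood at 60.5 TPM with coding transcript length and 23.8 TPM with merged exons, and Eprs at 267 and 108 TPM. Cytosolic over mitochondrial medians differed by 2.46 on the log2 scale with coding transcript length and by 2.65 ± 0.14 with merged exons.

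**Figure D3:**
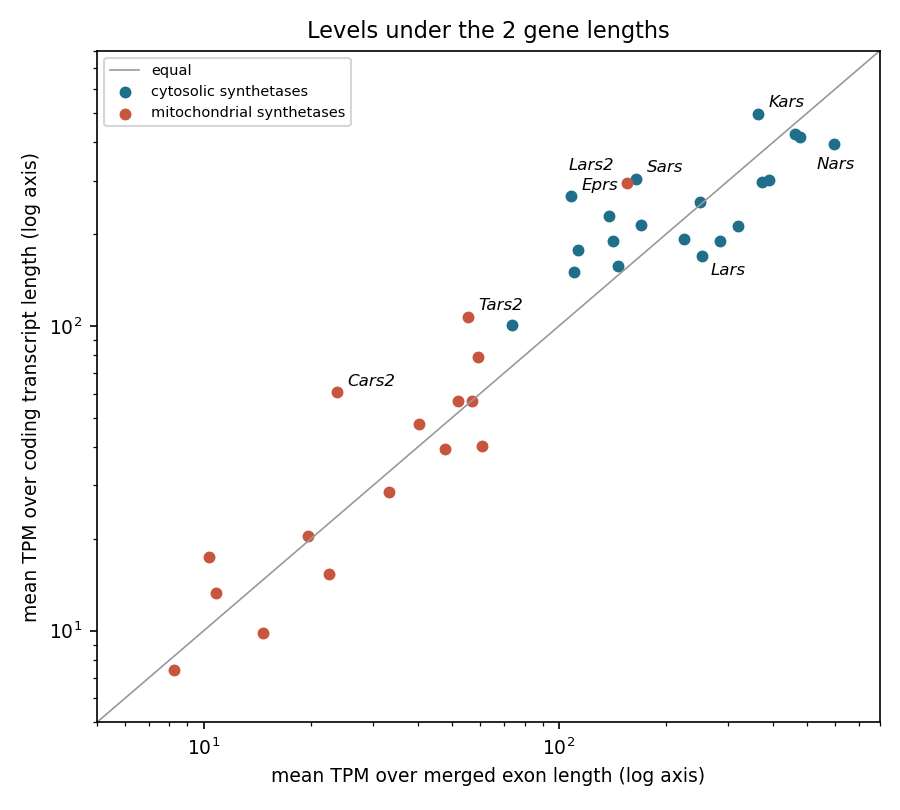
Mean TPM of each synthetase gene over coding transcript length (vertical, log axis) and over merged exon length (horizontal, log axis), with the line of equal values. Eprs, Sars, Lars2, Tars2 and Cars2 lie above the line, and Nars and Lars below it.

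For each gene, equal rates in the 3 libraries were tested by chi-square, with p-values adjusted by Benjamini-Hochberg over the 13688 genes tested. That test takes fragments as independent and so measures counting error between these libraries only. Calls needed an adjusted p below 0.05 together with a ratio of 2 or more between the highest and lowest library. The ratio was taken in CPM, counts scaled for library size but not for gene length. Library totals were here adjusted by trimmed means of M values (TMM). None of the 36 synthetase genes was called (0 of 36, also with DESeq2 size factors), against 11.0% of all genes tested, and 0 of 36 reached a ratio of 1.5, against 16.1%. At p under 0.05, adjusted or not, the chi-square test found 30 of 36, 17 cytosolic and 13 mitochondrial, against 70.5% of all genes at an adjusted p. The 11.0% share rests on 1505 genes called, which fell to 777, 523 and 528 with replicate 2, 3 or 4 left out. The median highest-to-lowest ratio was 1.11 over synthetase genes, 1.09 in the cytosolic and 1.19 in the mitochondrial set. Among 25 related genes (scaffold, amidotransferase, editing, tRNA handling and stress response genes with Myc), 20 passed the adjusted p, 2 reached a ratio of 1.5 (Chac1 and Ddit3) and 0 were called. For the 7743 protein-coding genes with a mean of 10 TPM or more, the median ratio was 1.13, close to the 1.11 of synthetase genes. A called share was not computed for those genes. The 11.0% and 16.1% shares cover all genes with 30 or more fragments in all, so they are not matched for level.

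**Figure D4:**
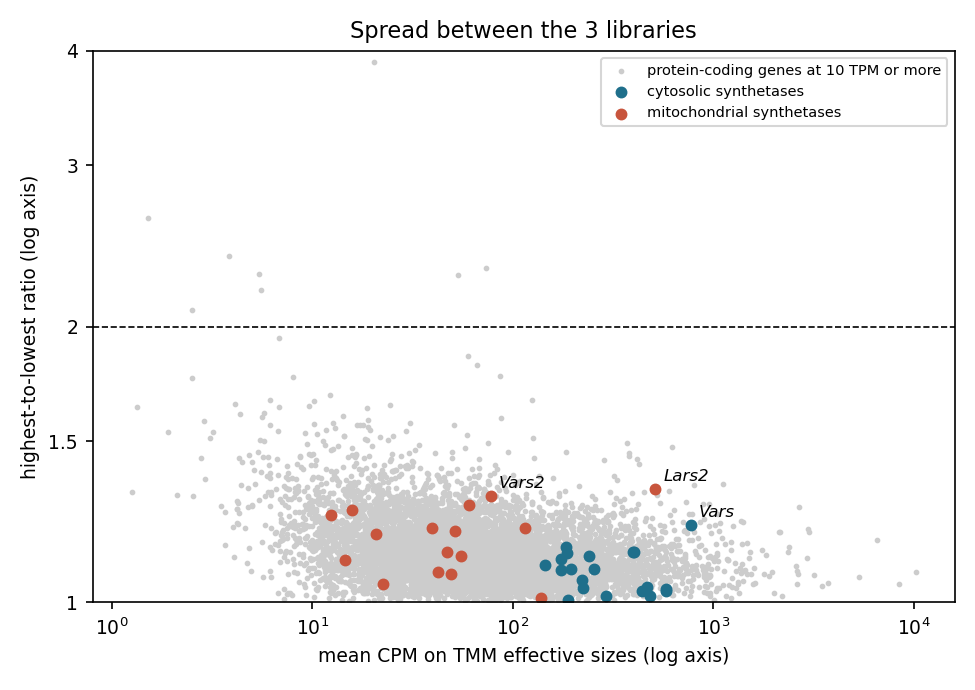
Highest-to-lowest ratio between the 3 libraries (vertical, log axis) against mean scaled CPM (horizontal, log axis) for 36 synthetase genes, with protein-coding genes of 10 TPM or more in grey, of which 2 with a ratio above 4 lie off the scale. All synthetase genes lie below a ratio of 1.5, with Lars2 the highest at 1.33.

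Lars2, highest in replicate 2 as given above, had the largest ratio among synthetase genes, 1.33. Its rate differed between libraries at an adjusted p of 4.05e-246 in the chi-square test across all genes. Vars2 had 41.0, 49.4 and 52.9 TPM in replicates 2, 3 and 4, lowest in replicate 2, with a ratio of 1.31. Vars was likewise lowest in replicate 2, with a ratio of 1.21, the largest of the cytosolic set. Aars2 had 54.6, 57.9 and 69.0 TPM in replicates 2, 3 and 4 and Aars 136, 150.1 and 152 TPM, both lowest in replicate 2. Replicate 2 was the shallowest library and had the most Xist fragments, and the part of depth and sex in these values was not tested.

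At the other end, Hars (324, 312 and 319.8 TPM) and Iars2 (52.6, 51.2 and 52.6 TPM) had ratios of 1.01 and 1.01 after scaling of the libraries. By the coefficient of variation in TPM, a different measure, the lowest were Nars (0.712%), Gars (0.882%) and Kars (0.934%). The median coefficient of variation was 3.16% over cytosolic genes, 8.40% over mitochondrial genes and 6.18% over the same 7743 protein-coding genes.

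Over the set as a whole, the libraries differed little. Each library was set against the mean log2 level of the others. The median difference over the 36 synthetase genes was -0.04 for replicate 2, 0.01 for replicate 3 and 0.03 for replicate 4. The same medians over all genes tested were -0.01, 0.00 and 0.01. In replicate 2, 24 of the 36 synthetase genes were lower than the mean of the other libraries, against 7122 of the 13688 genes tested. In replicate 4, the deepest, 11 of the 16 mitochondrial genes were higher than the mean of the others, against 7333 of 13688 genes. The median difference over the 16 was 0.07. Lars2, Fars2, Rars2 and Mars2 had their highest value in replicate 2.

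The level of each enzyme was set beside the share of codons for its amino acid, weighted by the TPM of the coding genes. Over 19 cytosolic genes (Farsb left out as a second subunit) the level had a Spearman correlation of 0.01 and a Pearson correlation of -0.03 on log2 levels with this share. With merged exon length Nars stood first in level at a codon share of 3.44%. Eprs, serving glutamate and proline together, had a share of 13.4% at 108 TPM, or 267 TPM with coding transcript length. Over 16 mitochondrial genes, with shares from the 11 of 13 mitochondrial coding sequences that had fragments, Spearman and Pearson correlations were 0.42 and 0.57. Here Ears2 was given the share of glutamate alone, although mitochondrial glutaminyl-tRNA is also charged through it. With coding transcript length the Spearman values were 0.24 for cytosolic and 0.29 for mitochondrial genes. These are descriptions across genes of the same 3 libraries, and genes are not independent replicates.

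**Figure D5:**
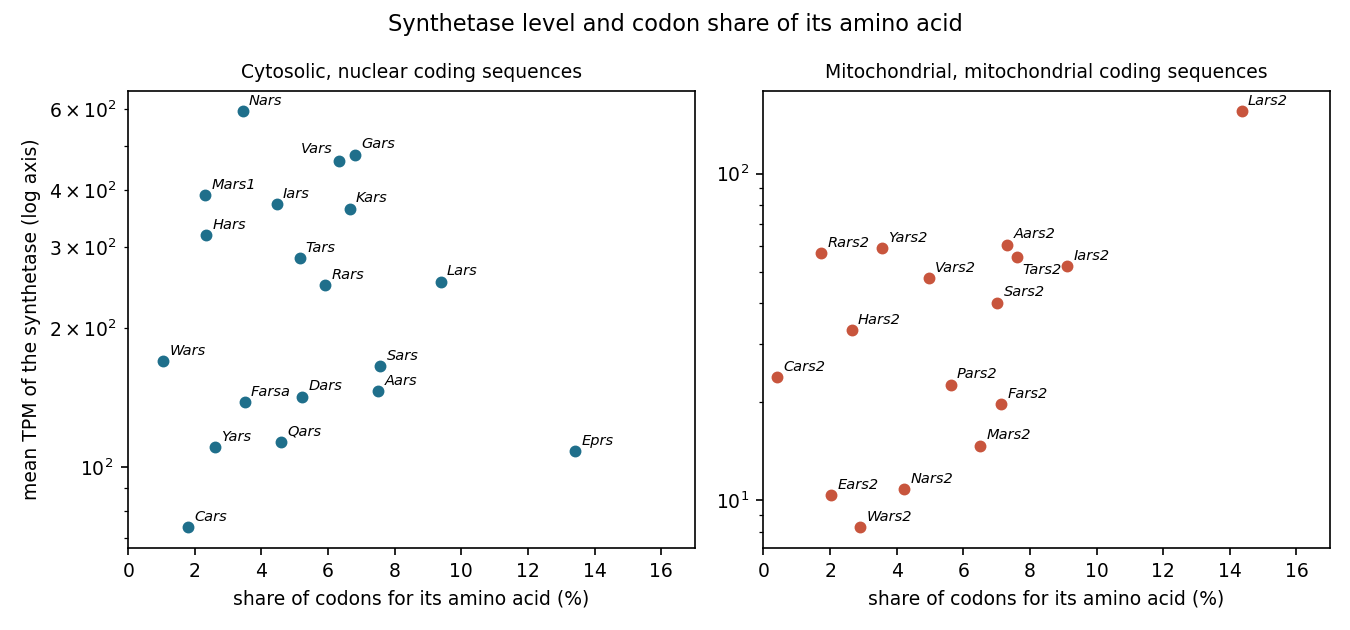
Mean TPM of each synthetase (vertical, log axis) against the TPM-weighted percentage of codons for its amino acid (horizontal), for 19 cytosolic genes with nuclear coding sequences (left) and 16 mitochondrial genes with mitochondrial coding sequences (right). Lars2 lies at the upper right of its panel at a codon share of 14.4%, while Rars2 is at 57.0 TPM with a share of 1.74%.

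Lars2 combined the highest level of its set with the highest codon share, 14.4% for leucine. Iars2 and Tars2, with the next shares of 9.13% and 7.60%, were among the 6 highest mitochondrial genes. Rars2 and Yars2 were as high at shares of 1.74% and 3.56%, and Mars2 was among the 4 lowest at 6.51%. Wars2 and Ears2, at the foot of the order, stood beside shares of 2.91% for tryptophan and 2.04% for glutamate. Glutamine codons, which Ears2 also serves through the amidotransferase, were not counted in its share.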

How the data were processed

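The deposited files hold raw fragment counts per gene and library, with merged exon length and coordinates; the authors made them, per the file headers, with featureCounts 1.4.6-p4 on paired-end alignments over exons of GENCODE mouse M13, with strand option 2, on build mm10 per the labels. Fragments that overlap several genes or map to several places are left out by that program's defaults. The aligner's settings are not stated in the labels or headers.

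Symbols came from GENCODE M21 by unversioned identifier, with 50376 of 50600 matched. TPM was count over merged exon length, scaled to 1000000 per library. Levels were compared as log2(TPM + 1), a pseudocount of 1, and pairs were tested by sign flips over libraries (permutation test, exact, two-sided). Between libraries, each gene with 30 or more fragments in all was tested for equal rates by chi-square (2 degrees of freedom) on TMM sizes from edgeR 4.0.16 in R 4.3.3, with Benjamini-Hochberg adjustment and a ratio of 2. With 1 group, no test between conditions exists. Python 3.11.15, scipy 1.17.1, biopython 1.88 and blastn 2.17.0 served the other steps, shared sequence being counted at 95% identity over 50 bases. Steps were tested on simulated data. All members were named, and members and lists were chosen with earlier results of these data known. Alternatives were DESeq2 1.42.0 size factors, library totals, other pseudocounts, filters and lengths, and each library left out.

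Depth was 41222058 to 99097524 fragments, so 3 fragments were worth 0.0728 to 0.0303 CPM. Fragments carry no molecular identifiers, so such floors cover counting error only. Some values and sequences of related genes and promoters are not reported here.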

Additional observations from a re-analysis of the deposited data

How the results depend on the processing

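Of the set-level and pair results, 172 values under alternatives were counted as unmoved, 14 moved and 6 turned round. Pairs were judged by direction alone, and several changed in size: Eprs minus Pars2 was 4.75 and Aars minus Aars2 2.73 without length scaling, and Tars minus Tars2 was 0.82 and Cars minus Cars2 0.73 with coding transcript length. With coding transcript length the cytosolic and mitochondrial median log2 levels were 7.81 and 5.35, and with TPM taken over protein-coding genes outside the mitochondrial genome 7.97 and 5.32, against 7.88 and 5.23 as reported. Cytosolic minus mitochondrial was 2.35 without length scaling and 2.46 with coding transcript length, against 2.65. Complex minus other cytosolic was 0.70 without length scaling and 0.29 with coding transcript length. Class I minus class II became 0.0102 without length scaling. The C/EBP-ATF core difference was 0.77 without length scaling and -0.38 with coding transcript length, and the E-box difference 0.25 and -0.48. Lars minus Lars2 was -0.80 and -0.79 under these settings. The settings without length scaling and with coding transcript length change only the gene length used.

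Genes called between libraries numbered 2384 with a summed count of at least 1, and 523 to 777 with a library left out, where fewer samples enter. The replicate 3 median over synthetase genes was -0.00299 with library totals. No synthetase gene was called under any alternative run. No paired analysis was possible because the libraries form 1 group, so that no replicate number links 2 groups; the pairs above are pairs of genes. The design allows no p below 0.25 over libraries, and levels near 10 TPM rest on fewer fragments than the cytosolic ones.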

Other observations

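Genes that handle tRNAs around the charging step covered a wide range. Xpot, the exporter of tRNAs from the nucleus, was at 153 ± 2.86 TPM and Trnt1, which adds the terminal CCA, at 77.6 ± 4.97 TPM (SD, n = 3). Dtd1, which removes D-amino acids from tRNAs, was at 65.1 ± 4.37 TPM and Dtd2 at 9.79 ± 0.792 TPM. Sepsecs and Pstk, which convert seryl-tRNA to selenocysteinyl-tRNA after Sars has charged it, were at 13.6 ± 0.331 TPM and 5.91 ± 0.504 TPM, against 165 ± 5.64 TPM for Sars. With coding transcript length Sepsecs was at 12.1 TPM, Pstk at 27.5 TPM and Sars at 305 TPM, so the order of Sepsecs and Pstk depended on gene length. Tarsl2, a second cytosolic threonyl enzyme gene outside the 36, was at 10.9, 9.73 and 10.2 TPM in replicates 2, 3 and 4, below every Tars value.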
